A study of Mus musculus with 6 samples.

Results

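ATP-binding cassette (ABC) transporters were followed through 6 RNA-seq libraries of mouse skin mast cells. Members were all genes of the deposited count table whose symbol is Abc followed by a subfamily letter from a to g, a number and at most 1 further letter. There were 50 among 47643 genes, with 16 in subfamily A, 10 in B, 10 in C, 4 in D, 1 in E, 3 in F and 6 in G. Tap1, Tap2 and Cftr, which are ABC genes under other symbols, fall outside the rule.

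Mast cells live in tissues such as skin and hold histamine and proteases in secretory granules. The comparison addressed how skin mast cells of an embryo, described by the submitters as derived from yolk sac hemogenic endothelium, differ from those of the adult, described as definitive. All 6 libraries came from Cdh5CreERT2 mice that had received 4OHT, the active form of tamoxifen, at E7.5. Cdh5 is an endothelial gene, so the Cre recombinase is expressed in endothelium. The 3 embryonic libraries were of skin cells at E16.5 gated CD45+ F4/80- CD64- ckit+ ST2+. The 3 adult libraries were of skin cells gated CD45+ F4/80- CD64- ckit+ Fcer1+, and the epidermis of adult skin had been taken off with Dispase. The labels give neither the sex nor the exact age of the adults, and do not say whether the Cre-induced label entered the sort or whether each library was a separate animal. Stage, described origin, last gate marker and epidermis removal cannot be told apart, and p-values refer to the spread between these libraries only.

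An ABC transporter couples ATP hydrolysis at a pair of nucleotide-binding domains to the movement of a substrate across a membrane. Subfamilies A and G move mainly lipids and sterols. Subfamily B holds drug and lipid exporters of the plasma membrane, half-transporters of mitochondria and peptide transporters. Subfamily C exports organic anions and conjugates, and its Abcc1 product exports leukotriene C4, a mediator that mast cells make. Subfamily D serves peroxisomes and lysosomes. Subfamilies E and F have the nucleotide-binding domains without a membrane domain and act on ribosomes.

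Libraries held 34122162 to 49813523 counts in genes, and a floor of 3 counts was 0.0603 to 0.0850 CPM (counts scaled to a common library size). The 14 mast cell markers summed to 128076 to 139811 CPM in the embryonic group and to between 66670 and 70890 CPM in the adult group, and none was at 0 in any library. Single markers went both ways at an adjusted p under 0.05 (edgeR). Cpa3, Hdc, Cma1, Tpsb2, Gata2, Il1rl1 and Srgn were higher in embryonic libraries. Mcpt4, Tpsab1, Fcer1a, Ms4a2 and Slc18a2 were higher in adult libraries, and Kit and Mitf did not pass. Markers of other cells were much lower and uneven. Embryonic replicate 3 had 700 CPM over 11 keratinocyte markers against 33.7 to 146 CPM in the other 5 libraries. Adult replicate 3 had 92.2 CPM over 10 fibroblast markers against 448 to 695 CPM elsewhere. The 10 dendritic and Langerhans cell markers added up to 46.9 to 66.9 CPM per embryonic library, and to 2996, 2652 and 1014 CPM in adult replicates 1, 2 and 3. The 10 macrophage markers added up to 15.9 to 43.1 CPM against 157 to 242 CPM. Itgax and Flt3 of the dendritic list and C1qc of the macrophage list were at 0 in 2 embryonic libraries each. In adult libraries no dendritic marker was at 0, and Fcgr1 of the macrophage list was at 0 in 1 library. In bulk RNA, fewer cells of a type and less RNA per cell cannot be told apart.

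The members with large differences were mostly transporters of lipids, drugs and organic anions. Of the 16 that passed the test at 2-fold or more, 13 were higher in adult libraries. Of the 4 genes of the ribosome-associated subfamilies E and F, 3 passed it as higher in embryonic libraries, each by less than 2-fold. For 1 of the 3, Abcf3, this was lost in 14 of 16 alternative settings. Of 50 members, 38 passed the low-count filter of edgeR and were tested. A gene was called at a Benjamini-Hochberg adjusted p under 0.05 over all 15111 tested genes. There were 21 called members (55.3% of 38) where 63.0% of all tested genes were called. Of these, 7 (18.4%) were higher in embryonic libraries, against 31.2% of all genes, and 14 (36.8%) in adult libraries, against 31.7% of all genes. The share called in either direction was therefore near or below that of all genes. At 2-fold or more, 3 members (7.89%) were higher in embryonic libraries, where 17.2% of all genes were, and 13 (34.2%) in adult libraries, where 20.8% were. At 10-fold or more, 7 members (18.4%) were higher in adult libraries, where 5.71% of all genes were. The groups' CPM ranges did not overlap for 23 tested members (60.5%) and for 70.0% of all genes. The median log2 fold change, embryonic minus adult, was -0.30 over the members (quartiles -2.05 and 0.28) and -0.02 over all tested genes. These are descriptions of the family, and no test of it as a set was made.

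**Figure D1:**
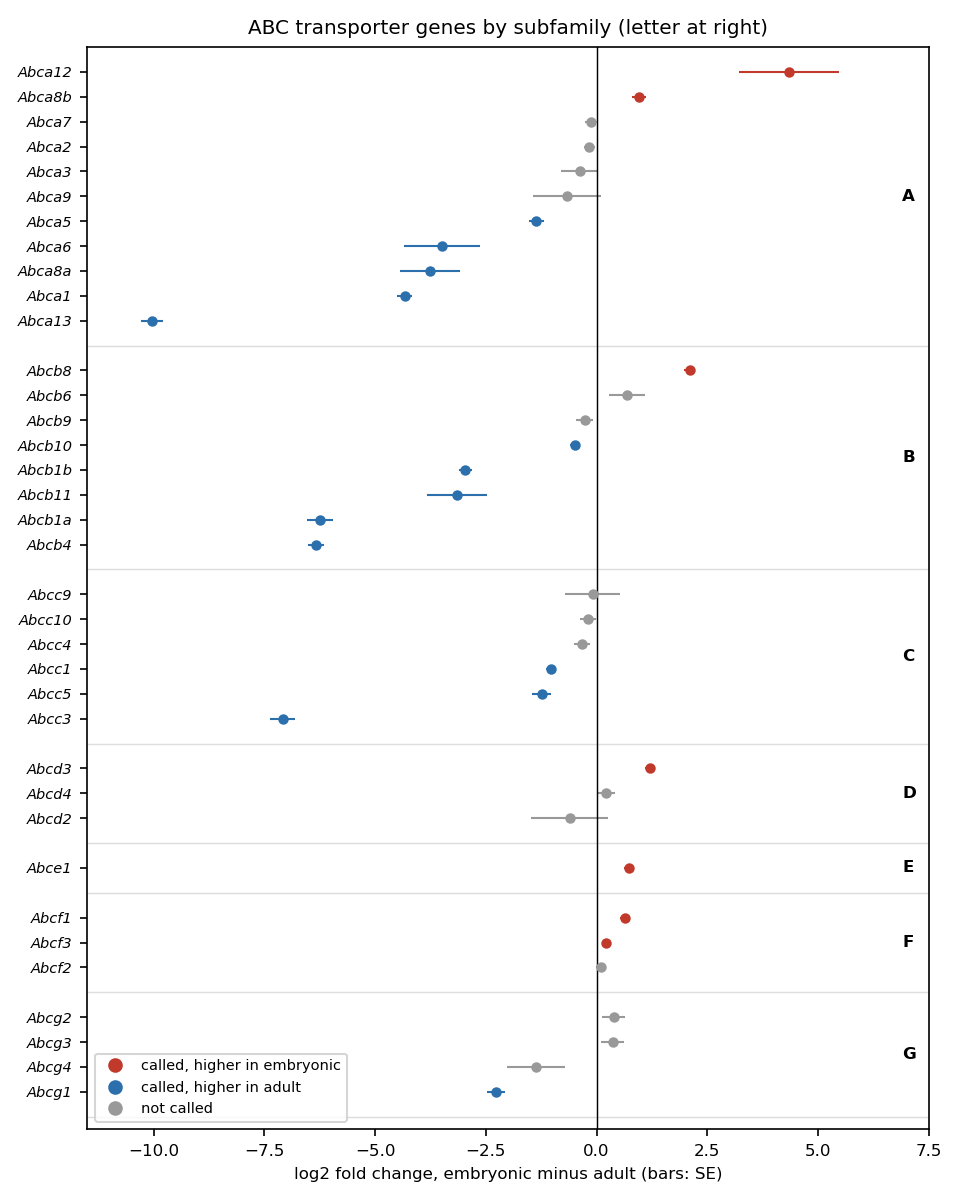
Log2 fold change of embryonic over adult libraries (x axis) for 36 of the 38 tested ABC genes, grouped by subfamily (letters at right). Points are fitted values with SE bars, red and blue for genes called higher in embryonic and adult libraries and gray for genes not called. Subfamilies A, B and C reach far to the left (Abca13 at -10.04, Abcc3 at -7.09) and G to -2.27 (Abcg1). A and B also hold called genes to the right (Abca12 at 4.34, Abcb8 at 2.10), and called genes of D, E and F lie between 0.22 and 1.21.

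By subfamily, A had 2 members higher in embryonic, 5 higher in adult and 4 not called, and B had 1, 5 and 3. Subfamily C had 3 higher in adult and 3 not called. D had 1 higher in embryonic and 3 not called, and the only E member was higher in embryonic. F had 2 higher in embryonic and 1 not called, and G had 1 higher in adult and 3 not called. No member of C or G was called higher in embryonic libraries, and no member of D, E or F was called higher in adult libraries.

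Levels per exon length (RPKM, CPM per kilobase of exon) come from the same counts and describe the same division as shares of a sum. Over all 50 members the summed level was 226 to 251 RPKM in embryonic and 260 to 275 RPKM in adult libraries. Subfamilies E and F made up 54.4%, 50.9% and 49.7% of this sum in the embryonic libraries and 37.0%, 34.3% and 32.0% in the adult ones. Subfamilies A, B, C and G together took 29.2%, 30.6% and 32.1% in embryonic and 52.8%, 55.8% and 58.9% in adult libraries. Both shares are parts of 1 sum, and their ranges did not overlap between groups. Subfamily D made up 17.7% ± 1.10 of the sum in embryonic and 9.73% ± 0.576 in adult libraries (SD, n = 3 per group). Abce1 had the highest level in embryonic libraries (38.8 ± 4.58 RPKM, SD), followed by Abcf2 (31.7 ± 3.81) and Abcf1 (29.7 ± 3.16), and Abcf2 and Abcf1 differed by less than their spread. In adult libraries the order was Abcf2 (29.6 ± 1.82 RPKM), Abce1 (23.3 ± 1.63) and Abcb10 (22.4 ± 2.90), with Abce1 and Abcb10 within their spread. Abca1 moved from rank 22 among the 50 members in embryonic to rank 6 in adult libraries. At 1 RPKM or more there were 21 members in embryonic and 26 in adult libraries, 6 of them in adult libraries alone and 1, Abca8b, in embryonic libraries alone. Of the 13 members called at 2-fold or more as higher in adult libraries, 10 reached 1 RPKM there. Of the 3 called so in embryonic libraries, 2 reached it there.

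**Figure D2:**
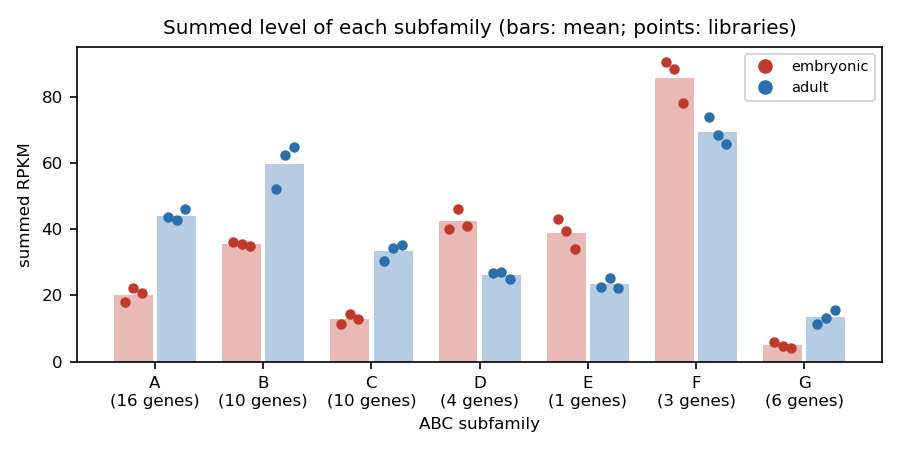
Summed level of each ABC subfamily in RPKM (y axis, from 0). Bars are group means and points the 3 libraries of each group, red embryonic and blue adult. In A, B, C and G all adult points lie above all embryonic points, and in D, E and F all lie below.

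Subfamily A held the largest change of the family. Abca13 (ENSMUSG00000004668.14, chromosome 11, 9191942 to 9684259 in GRCm38) encodes a very large transporter whose substrate is not settled. It had 0.0215, 0.113 and 0.0835 CPM in the 3 embryonic libraries and 77.1, 79.7 and 71.4 CPM in the 3 adult libraries. The embryonic libraries were thus at about the floor, with 9 counts in all against 9999. The adult to embryonic ratio of summed counts was 1100, with a 95% exact interval of 579 to 2407 that covers counting error only. The fitted difference was 1051-fold (log2 fold change -10.04 ± 0.24 SE, adjusted p = 3.6e-09).

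Abca1 (ENSMUSG00000015243.4, chromosome 4, 53030787 to 53159895) encodes the transporter that loads cholesterol and phospholipid onto lipid-poor apolipoprotein A-I. It was at 8.63, 12.0 and 7.76 CPM in embryonic libraries and at 176, 192 and 202 CPM in adult libraries. All 3 adult values lay far above the embryonic ones, with a fitted fold of 20.1 (log2 fold change -4.33 ± 0.17 SE, adjusted p = 5.5e-08). Its subfamily G partner in cholesterol efflux, Abcg1 (ENSMUSG00000024030.6, chromosome 17, 31057698 to 31115777), passes sterols on to larger lipoprotein particles. Abcg1 was at 12.2, 8.84 and 7.82 CPM in embryonic and 39.3, 43.8 and 56.4 CPM in adult libraries. The groups did not overlap, and the gene was 4.83-fold higher in adult libraries (adjusted p = 9.2e-06). Both genes had their highest value in adult replicate 3. In that library the macrophage and dendritic cell marker sums were the lowest of the adult group. Of the macrophage list, Lyz2, C1qa, C1qb, C1qc, Mrc1 and Mertk were lowest there among adult libraries. Cd68 was highest there, and Adgre1, Csf1r and Fcgr1 lay between their other adult values. In adult replicates 1, 2 and 3, Lyz2 was at 142, 168 and 62.6 CPM and Cd68 at 78.0, 59.9 and 83.6 CPM. Without the third library of both groups the Abcg1 fold was 3.93.

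A list of 20 genes of sterol efflux and of the liver X receptors, which induce Abca1 and Abcg1 when oxysterols bind, gave the setting of this pair. All 20 were tested, with 8 higher in adult libraries, 4 in embryonic libraries and 8 not called. The share called was thus 60.0%, near the 63.0% of all tested genes. Apoe, the apolipoprotein that accepts cellular sterols, was at 65.2, 61.0 and 70.6 CPM against 3572, 3525 and 2680 CPM, 49.7-fold higher in adult libraries (adjusted p = 6.6e-09). Mylip, a liver X receptor target that marks lipoprotein receptors for degradation, was 11.5-fold higher in adult libraries (adjusted p = 4.1e-07). In the embryonic direction Lpcat3, which remodels membrane phospholipids, was 2.0-fold higher (adjusted p = 1.6e-05). Rxra, the partner receptor, was 1.65-fold higher in embryonic libraries (adjusted p = 8.9e-05). Of both liver X receptors, Nr1h2 was 1.37-fold higher in adult libraries and Nr1h3 was not called (log2 fold change 1.08, adjusted p = 0.093). Apoe, Abca1 and Abcg1 are also expressed by macrophages and dendritic cells, whose marker sums were higher in adult libraries as given above. Their part in these differences was not tested.

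Side by side on chromosome 11 lie 5 members of subfamily A, which did not change in 1 direction. Abca8b, Abca8a, Abca9, Abca6 and Abca5 span 406 kb (109932190 to 110337716), and all have been linked to lipid handling. Abca8b was at 13.5 CPM in each embryonic library and at 7.18, 7.85 and 5.89 CPM in adult libraries. It was 1.94-fold higher in embryonic libraries (adjusted p = 0.00058). Its exons share 3.25% of their bases with Gm11697, which lies on the other strand and was 12.2-fold higher in embryonic libraries. Because strand was not recorded, reads of both genes outside the shared bases were assigned by position alone.

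The next gene, Abca8a, went the other way, at 0.430, 0.283 and 0.542 CPM in embryonic and 7.40, 8.47 and 1.37 CPM in adult libraries. It was 13.5-fold higher in adult libraries (log2 fold change -3.76 ± 0.67 SE, adjusted p = 0.0012). Abca6 was at 0, 0.0850 and 0.104 CPM in embryonic and 0.885, 0.946 and 0.342 CPM in adult libraries. With 8 counts against 98 in all, it was 11.2-fold higher in adult libraries (adjusted p = 0.0049). Abca9 had 0.859, 0.255 and 1.59 CPM against 1.89, 2.12 and 0.316 CPM and was not called (log2 fold change -0.67 ± 0.77 SE, adjusted p = 0.47). Abca8a, Abca6 and Abca9 all had their lowest adult value in adult replicate 3, the library in which fibroblast markers were lowest. Of the 11 marker lists of other cells, 8 had their lowest adult sum in that library, the fibroblast and dendritic lists among them. Fibroblast sums were higher in embryonic libraries, where Abca8a and Abca6 were low, but genes of the list did not move alike. Fbln1 was 5.31-fold higher in embryonic libraries (adjusted p = 0.0085). Dcn was 4.72-fold higher in adult libraries (adjusted p = 0.031), at 148, 128 and 30.2 CPM in adult replicates 1, 2 and 3. Without the third library of both groups, Abca8a was 21.7-fold and Abca6 22.5-fold higher in adult libraries, and Abca9 was called (3.50-fold, adjusted p = 0.012). The part of fibroblast RNA in these genes was not tested. Without embryonic replicate 1, Abca6 was 7.33-fold higher in adult libraries.

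Abca5, a transporter of late endosomes and lysosomes at the end of the group, was steady within groups. It was at 4.34, 5.52 and 4.82 CPM in embryonic and 12.2, 12.3 and 13.2 CPM in the adult group, 2.57-fold higher in adult libraries (adjusted p = 7.3e-05). Of the tested genes nearest to the group, Prkar1a was not called (log2 fold change 0.01) and Fam20a was not called (-1.54, adjusted p = 0.058). On the other side Map2k6 was 1.81-fold higher in embryonic libraries, 61.4 kb away, and Kcnj2 was not called.

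**Figure D3:**
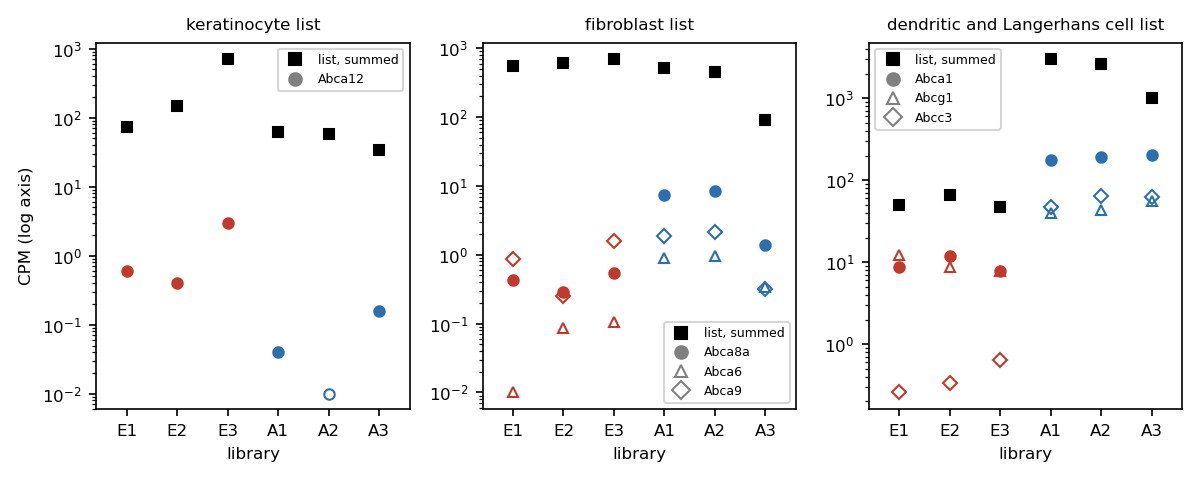
CPM on log axes in each library (E1 to E3 embryonic, A1 to A3 adult). Black squares are summed marker lists and colored symbols are ABC genes, red in embryonic and blue in adult libraries, with a value of 0 drawn at 0.01. Abca12 and the keratinocyte sum are both highest in E3, the fibroblast sum and Abca8a, Abca6 and Abca9 are all at their adult low in A3, and Abca1 and Abcg1 are highest in A3, where the dendritic cell sum is at its adult low and Abcc3 lies between its other adult values.

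Abca12 (ENSMUSG00000050296.14, chromosome 1, 71242276 to 71414910) carries ceramides into the lamellar granules of keratinocytes. It was at 0.601, 0.397 and 2.96 CPM in embryonic libraries and 0.0402, 0 and 0.158 CPM in adult libraries. The groups did not overlap, but embryonic replicate 3 held most of its 184 embryonic counts, against 8 adult counts. The gene was 20.2-fold higher in embryonic libraries (log2 fold change 4.34 ± 1.13 SE, adjusted p = 0.0088). The fold was 7.94 without embryonic replicate 3 (adjusted p = 0.022) and 55.3 without adult replicate 3. The keratinocyte marker sum was also highest in embryonic replicate 3, but genes of the list did not move alike. Krt1 was at 19.0, 43.6 and 243 CPM in embryonic and 0.463, 0.323 and 0.395 CPM in adult libraries. Krt10, Lor, Ivl and Krtdap were also called higher in embryonic libraries. Krt5, Krt14, Krt15, Trp63 and Sfn were not called, and Dsg3 was called 4.45-fold higher in adult libraries. The epidermis had been removed from adult skin alone. The part of keratinocyte RNA in the Abca12 difference was not tested.

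The other tested members of subfamily A were not called. Abca2, a transporter of lysosomal membranes, and Abca7, a phospholipid transporter, were at 73.1 ± 9.15 and 53.3 ± 7.09 CPM in embryonic and 81.8 ± 11.3 and 58.3 ± 7.75 CPM in adult libraries (SD, n = 3). Their adjusted p-values were 0.30 and 0.44. Abca3, the surfactant lipid transporter of lung, was at 1.30 ± 0.365 and 1.69 ± 0.620 CPM (adjusted p = 0.45), and 10.4% of its exon bases overlap D330041H03Rik.

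Subfamily B did not move in 1 direction. The tested exporters of the plasma membrane were higher in adult libraries. Among the mitochondrial half-transporters, Abcb8 was higher in embryonic and Abcb10 in adult libraries. Abcb4 (ENSMUSG00000042476.12, chromosome 5, 8893717 to 8959231) moves phosphatidylcholine to the outer leaflet and is best known from bile. It was at 1.12, 1.33 and 1.46 CPM in embryonic and 89.4, 105 and 123 CPM in adult libraries. The groups lay far apart, with an 81.1-fold difference (log2 fold change -6.34 ± 0.18 SE, adjusted p = 6.6e-09).

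Abcb1a and Abcb1b encode the P-glycoproteins, multidrug exporters that the human genome holds as 1 gene. Abcb1a (ENSMUSG00000040584.8, chromosome 5, 8660077 to 8748575) was at 0.193, 0.425 and 0.334 CPM in embryonic and 18.7, 24.3 and 28.4 CPM in adult libraries. The fitted difference was 75.8-fold (log2 fold change -6.24 ± 0.29 SE, adjusted p = 1.1e-07). Abcb1b (ENSMUSG00000028970.9, chromosome 5, 8798147 to 8866315) was already present in embryonic libraries, at 11.4, 15.2 and 13.8 CPM, and reached 94.3, 116 and 103 CPM in adult libraries. It was 7.76-fold higher there (log2 fold change -2.96 ± 0.14 SE, adjusted p = 1.1e-07). Both genes were higher in all 3 adult libraries than in any embryonic one, and Abcb1b had the higher level per exon length in both groups. Runs of 50 bases shared with another member, mostly with each other, made up 17.6% of Abcb1a and 11.2% of Abcb1b. With no option for multi-mapped reads set, reads that matched both genes would be counted for neither, so both levels may be too low. Another 10.1% of Abcb1a exon bases overlap Gm42686.

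Abcb1a, Abcb1b and Abcb4 lie side by side on 299 kb of chromosome 5 (8660077 to 8959231), and all rose in adult libraries. Neighbours outside the family also did so. Rundc3b, 37.1 kb before the group in the counted gene models, was 11.9-fold higher in adult libraries (adjusted p = 3.1e-07), and Slc25a40, on its far side, 1.62-fold. The RefSeq start of Abcb1a (8567091) lies within Rundc3b (8490334 to 8622952, on the other strand), and strand was not recorded. Crot, 6.80 kb after the group, was 1.27-fold higher in adult libraries and Tmem243 4.00-fold. The difference was therefore not limited to the 3 transporters, and it was smallest at Crot, the neighbour closest to Abcb4.

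**Figure D4:**
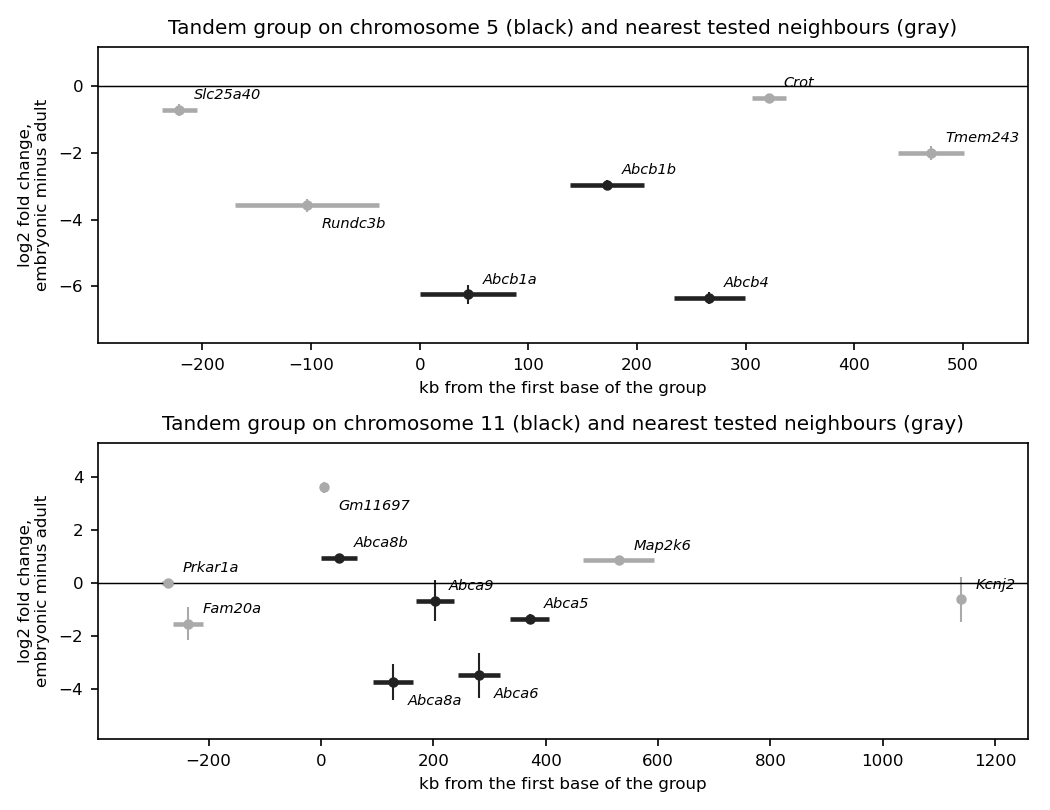
Log2 fold change of embryonic over adult libraries (y axis, SE bars) against distance in kb from the first base of each tandem group (x axis). Horizontal bars are the extent of each gene, black for ABC genes and gray for the nearest tested neighbours. On chromosome 5 all 3 ABC genes lie below 0 along with all 4 neighbours, while on chromosome 11 Abca8b lies above 0 and Abca8a, Abca6 and Abca5 below.

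Sequence upstream of the start is shown for 4 members with large changes that a reader may want to compare, the chromosome 5 neighbours Abcb1b and Abcb4 beside Abca13 and Abca1. The 250 bases before the RefSeq start are from GRCm38.p6, written 5′ to 3′ on the gene's strand. Capitals mark matches on either strand to the motifs searched. The windows are chr11:9191692-9191941 on the plus strand for Abca13, chr4:53159896-53160145 on the minus strand for Abca1, chr5:8797897-8798146 on the plus strand for Abcb1b and chr5:8893471-8893720 on the plus strand for Abcb4.
Abca13: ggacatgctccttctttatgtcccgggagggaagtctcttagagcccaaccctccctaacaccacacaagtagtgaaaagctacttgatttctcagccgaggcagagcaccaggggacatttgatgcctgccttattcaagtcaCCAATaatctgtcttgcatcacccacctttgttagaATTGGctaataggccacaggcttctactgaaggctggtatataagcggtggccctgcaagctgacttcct
Abca1: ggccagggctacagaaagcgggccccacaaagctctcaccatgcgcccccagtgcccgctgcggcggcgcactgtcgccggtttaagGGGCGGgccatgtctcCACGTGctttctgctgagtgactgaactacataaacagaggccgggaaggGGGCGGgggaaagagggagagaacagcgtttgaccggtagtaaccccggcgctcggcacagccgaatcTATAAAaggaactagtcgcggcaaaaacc
Abcb1b: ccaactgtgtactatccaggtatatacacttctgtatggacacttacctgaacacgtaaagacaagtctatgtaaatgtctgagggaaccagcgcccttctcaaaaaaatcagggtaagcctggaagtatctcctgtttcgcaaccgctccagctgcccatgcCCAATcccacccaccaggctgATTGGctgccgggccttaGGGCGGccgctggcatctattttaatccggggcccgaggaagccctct
Abcb4: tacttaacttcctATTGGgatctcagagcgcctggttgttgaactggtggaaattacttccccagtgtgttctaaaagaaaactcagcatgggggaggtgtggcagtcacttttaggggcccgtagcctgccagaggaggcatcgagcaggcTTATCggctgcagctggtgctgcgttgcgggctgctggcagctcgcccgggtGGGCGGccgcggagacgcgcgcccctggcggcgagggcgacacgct

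Of the 50 members, 38 had a RefSeq window by symbol, and 8 motifs were searched on both strands in windows of this length. Capitalised matches did not overlap one another in these 4 windows. The CCAAT box (CCAAT) was in 12 of 38 members and in 33.8% of 32851 windows of all genes. Abca13 and Abcb1b each held it once on each strand, with the first base 106 and 70 bases before the start in Abca13 and at 87 and 66 in Abcb1b. The GC box (GGGCGG) was in 16 members and in 32.7% of all windows, and lay 48 bases before the start in Abcb1b and 46 in Abcb4. Abca1 held it at 163 and 97 bases, an E-box (CACGTG, 5 members, 6.02% of all windows) at 147 bases and a TATA box (TATAAA, 5 members, 12.4% of all windows) at 29 bases before the start. Abcb4 held a GATA site (GATAA, 8 members, 22.6% of all windows) at 98 bases and a CCAAT box at 237 bases before the start. The AP-1 site (TGANTCA) was in 0 members and 6.75% of all windows, the antioxidant response element (TGACNNNGC) in 3 members and 10.2%, and the nuclear receptor half-site (AGGTCA) in 5 members and 14.0%. These matches describe letters in a window and not binding. The RefSeq start of Abcb1a lies 93.0 kb before the first base of the counted gene model.

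Abcb11, the bile salt export pump of liver, was at the edge of detection, with 0.0644, 0.0283 and 0.0417 CPM in embryonic and 0.422, 0.600 and 0.263 CPM in adult libraries. It had 6 counts against 57 and was 8.89-fold higher in adult libraries (adjusted p = 0.0026). Its mean level was 0.00871 RPKM in embryonic and 0.0833 RPKM in adult libraries.

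Mitochondrial members of subfamily B serve iron and heme metabolism and moved in different directions. Abcb8 (ENSMUSG00000028973.18, chromosome 5, 24393663 to 24410054), of the inner membrane, was at 58.2, 56.5 and 49.2 CPM in embryonic and 13.1, 13.1 and 12.0 CPM in adult libraries. Every embryonic library exceeded every adult one, by 4.29-fold in the fit (log2 fold change 2.10 ± 0.12 SE, adjusted p = 3e-07). Abcb10, which is linked to heme synthesis, was at 70.7, 66.7 and 69.0 CPM in embryonic and 82.5, 101 and 106 CPM in adult libraries. It was 1.40-fold higher in adult libraries (adjusted p = 0.0035). Abcb6, a porphyrin transporter, was not called at 1.63 ± 0.263 and 1.01 ± 0.349 CPM, and 55.2% of its exon bases overlap Gm29253.

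Among 24 tested genes of mitochondrial heme and iron-sulfur synthesis, 17 were higher in embryonic and 2 in adult libraries. Calls made up 79.2% of this list and 63.0% of all tested genes. Cpox, which makes protoporphyrinogen, was 4.21-fold higher in embryonic libraries (adjusted p = 9.6e-07). Against this, Alas1, the first and housekeeping enzyme of heme synthesis, was at 14.7, 14.1 and 15.0 CPM against 68.5, 86.5 and 86.3 CPM, 5.51-fold higher in adult libraries (adjusted p = 1.6e-07). Flvcr1, a heme exporter, was 4.82-fold higher in adult libraries (adjusted p = 4.4e-06). The 11 erythroid markers, which include the red cell enzyme Alas2 of this list, summed to 179, 141 and 329 CPM in embryonic and 10.8, 5.58 and 3.32 CPM in adult libraries. Slc4a1 was at 0 in all adult libraries and in 1 embryonic library. The part of erythroid RNA in the list and in Abcb8 was not tested.

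The lysosomal peptide transporter Abcb9 of subfamily B was at 12.1 ± 2.68 and 14.6 ± 1.76 CPM and was not called (adjusted p = 0.24). Tap1 and Tap2, which form the related peptide transporter of antigen presentation, were not called either (log2 fold changes -0.15 and -0.11, adjusted p = 0.21 and 0.32).

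Subfamily C changed through 3 exporters of organic anions, all higher in adult libraries. Abcc3 (ENSMUSG00000020865.16, chromosome 11, 94343295 to 94392997) exports glucuronides and bile salts. It was at 0.258, 0.340 and 0.647 CPM in embryonic and 47.1, 64.7 and 62.1 CPM in adult libraries. The groups lay far apart, at a fitted 137-fold (log2 fold change -7.09 ± 0.29 SE, adjusted p = 9.7e-08). In adult libraries its level was 10.2 ± 1.66 RPKM, against 0.0728 ± 0.0360 RPKM in embryonic libraries.

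Abcc1 (ENSMUSG00000023088.16, chromosome 16, 14361558 to 14475737), the leukotriene C4 exporter, was abundant in both groups. It was at 71.7, 91.6 and 73.9 CPM in embryonic and 159, 162 and 168 CPM in adult libraries. The groups did not overlap, and the gene was 2.06-fold higher in adult libraries (log2 fold change -1.04 ± 0.11 SE, adjusted p = 2.7e-05). Ltc4s, which makes leukotriene C4, was not called (log2 fold change -0.31, adjusted p = 0.64). Abcc5, an exporter of cyclic nucleotides, was at 13.8, 20.2 and 26.7 CPM in embryonic and 44.2, 48.8 and 50.3 CPM in adult libraries. It was 2.36-fold higher in adult libraries (adjusted p = 0.0009). Abcc4, which exports cyclic nucleotides and prostaglandins, was at 13.0 ± 3.04 and 16.3 ± 1.24 CPM and was not called (adjusted p = 0.14). Abcc10, a drug exporter, was at 15.0 ± 1.82 and 17.2 ± 3.52 CPM and was not called (adjusted p = 0.35).

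Abcc8 and Abcc9 encode the sulfonylurea receptors, which are channel subunits and not transporters. Abcc9 had 48 embryonic and 50 adult counts and was not called (adjusted p = 0.91), and its direction was not stable. Abcc8 had 1 count in all. Of their channel partners, Kcnj8 was not called (log2 fold change 1.48, adjusted p = 0.15) and Kcnj11 had 0 counts.

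Glutathione conjugates are classical cargo of subfamily C. Of 26 tested genes of glutathione synthesis and conjugation, 10 were higher in adult and 7 in embryonic libraries. This share called, 65.4%, was near the 63.0% of all tested genes. Gstm1, a conjugating enzyme, was at 77.2, 74.8 and 63.0 CPM against 730, 707 and 702 CPM, 9.95-fold higher in adult libraries (adjusted p = 1.8e-08). Gclc, the catalytic subunit of the first step of glutathione synthesis, was 3.62-fold higher in adult libraries (adjusted p = 1.5e-06). In the embryonic direction Gstz1 was 2.83-fold higher (adjusted p = 1.4e-05) and Gsr, which regenerates reduced glutathione, 1.87-fold (adjusted p = 7e-05). Without embryonic replicate 2 the adult count was 6. Of 3 lipid mediator exporters outside the family, the sphingosine phosphate exporter Mfsd2b was 6.63-fold higher in adult libraries (adjusted p = 0.0013). The prostaglandin carrier Slco2a1 was 7.83-fold higher in embryonic libraries (adjusted p = 2.2e-06), and Spns2 was not called (adjusted p = 0.70).

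Subfamily D was the peroxisomal branch. Abcd3 (ENSMUSG00000028127.10, chromosome 3, 121758774 to 121815302), an abundant peroxisomal membrane protein that imports branched-chain and dicarboxylic acyl chains, was at 146, 184 and 155 CPM in embryonic libraries. It was at 66.7, 74.5 and 68.1 CPM in adult libraries. The groups did not overlap, and the gene was 2.31-fold higher in embryonic libraries (log2 fold change 1.21 ± 0.11 SE, adjusted p = 9.5e-06). Abcd2, another peroxisomal acyl importer, had 25 and 39 counts and was not called (adjusted p = 0.56). Abcd4, which helps vitamin B12 leave lysosomes, was at 10.9 ± 2.48 and 9.37 ± 1.70 CPM and was not called (adjusted p = 0.41).

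Of 26 tested genes of peroxisome biogenesis and beta-oxidation, 9 were higher in embryonic and 7 in adult libraries. This share called, 61.5%, was near the 63.0% of all tested genes. Pex6, an ATPase of the import machinery, was 3.13-fold higher in embryonic libraries (adjusted p = 8.7e-07) and Pex2 1.57-fold (adjusted p = 0.00024). Pex11a, which acts in peroxisome division, was at 1.59, 1.44 and 1.98 CPM against 22.1, 21.9 and 23.1 CPM, 13.3-fold higher in adult libraries (adjusted p = 1.1e-07). Pex5, the receptor for imported enzymes, was 2.22-fold higher in adult libraries (adjusted p = 6.7e-06).

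Subfamilies E and F, which act in translation, held the 4 highest levels per exon length when averaged over all 6 libraries. Abce1 (ENSMUSG00000058355.6, chromosome 8, 79683442 to 79711740) splits ribosomes after termination. It was at 164, 150 and 129 CPM in embryonic and 85.6, 96.1 and 85.2 CPM in the adult group, 1.66-fold higher in embryonic libraries (adjusted p = 0.00028). Abcf1, a partner of the initiation factor eIF2, was at 144, 132 and 117 CPM against 90.9, 83.5 and 77.1 CPM, 1.56-fold higher in embryonic libraries (adjusted p = 0.00064). For both genes every embryonic library was above every adult one. Abcf3 was at 84.6, 87.8 and 86.4 CPM against 76.4, 74.0 and 71.2 CPM, 1.17-fold higher in embryonic libraries at the edge of the threshold (adjusted p = 0.049). That call was lost in 14 of 16 alternatives, with adjusted p-values of 0.046 to 0.20 over all of them. Abcf2 was at 87.4, 87.0 and 70.2 CPM against 81.4, 74.1 and 72.6 CPM, overlapped between groups and was not called (log2 fold change 0.10 ± 0.11 SE, adjusted p = 0.46).

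Of 23 tested genes of ribosome recycling and eIF2 control, 13 were higher in embryonic and 5 in adult libraries. Calls made up 78.3% of this list and 63.0% of all tested genes. Denr, a recycling and reinitiation factor, was 2.48-fold higher in embryonic libraries (adjusted p = 3.3e-06), and Eif2s1, the alpha subunit of eIF2, 2.30-fold (adjusted p = 4e-06). Impact, a regulator of the eIF2 kinase Gcn2, was 2.23-fold higher in adult libraries (adjusted p = 0.00021), and Eif5 1.60-fold (adjusted p = 0.00045). The adult count was 3 without embryonic replicate 1, and 3 without adult replicate 3.

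**Figure D5:**
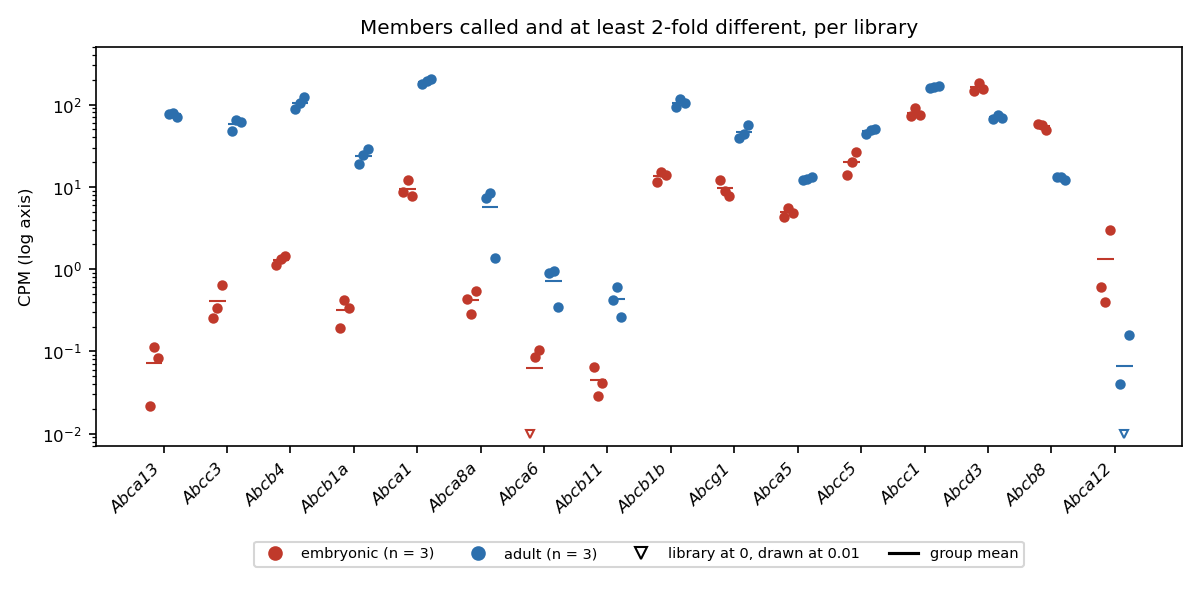
CPM in each library (y axis, log scale) of the 16 members called and at least 2-fold different, ordered by fold from adult-higher at left to embryonic-higher at right. Points are libraries (n = 3 per group), lines are group means, and open triangles are libraries at 0 drawn at 0.01. No gene has overlapping groups, adult replicate 3 is the low adult point of Abca8a and Abca6, and embryonic replicate 3 is the high point of Abca12.

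Besides Abcg1, subfamily G showed little difference. Abcg2, an exporter of urate, porphyrins and drugs, was at 4.81 ± 0.925 and 3.66 ± 0.671 CPM and was not called (adjusted p = 0.21). Abcg3, a rodent gene, was at 6.94 ± 1.90 and 5.42 ± 1.20 CPM (adjusted p = 0.26). Abcg4, a sterol transporter related to Abcg1, had 21 and 58 counts and was not called (adjusted p = 0.094). Its 2.58-fold difference was the largest among the 17 tested members not called. Phospholipid flippases and scramblases work on the same membrane lipids without an ABC domain. Of 20 tested genes, 16 were called (80.0%, against 63.0% of all tested genes), 9 higher in adult and 7 in embryonic libraries. The scramblase-family gene Plscr4 was at 0.236, 0.283 and 0.626 CPM against 59.4, 61.3 and 77.0 CPM, 168-fold higher in adult libraries (adjusted p = 8.6e-08), and the flippase Atp8b4 was 77.3-fold higher (adjusted p = 5.2e-07). Atp8a1 and Plscr1 were 1.74-fold and 1.81-fold higher in embryonic libraries (adjusted p = 0.00017 and 0.00018).

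The 12 members that did not pass the filter each had at most 30 counts over a group. They were Abca4, the retinal lipid importer, Abca14, Abca15, Abca16 and Abca17, which are best known from testis, Abcb5, Abcc2, Abcc6, Abcc8, Abcc12, and the sterol transporter pair Abcg5 and Abcg8. Abca14 had 0 counts in all libraries. Abca4 had 3 embryonic and 30 adult counts, an adult to embryonic ratio of 9.90 (95% interval 3.08 to 50.7, counting error only). Abcc2, the hepatic conjugate exporter, had 13 and 12 counts. With every gene of at least 1 count in the fit, 11 of the 12 were tested and 1 was called, Abca4 (adjusted p = 0.029).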

How the data were processed

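RNA of sorted skin mast cells was made into full-length cDNA with SMART-Seq v4 and tagmented with Nextera XT, per the labels' protocols; this kit marks neither strand nor molecules. The deposited values are read counts per gene. Per the file headers, the authors counted them with featureCounts 1.5.0-p1 over exons of GENCODE M9, without strand (setting 0) and ignoring reads marked as duplicates, and no option for multi-mapped or multi-overlapping reads was set. Per the submitters' processing notes, STAR and edgeR were used with GRCm38; their versions are not stated in the sources at hand. Symbols were taken by ID from GENCODE M21, which matched 47224 of 47643 IDs (419 did not match).

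The quasi-likelihood test of edgeR 4.0.16 (R 4.3.3) was run on counts, with TMM scaling, a filterByExpr minimum count of 10, robust glmQLFit and group as the only term. Adjustment was Benjamini-Hochberg over all 15111 genes, at a threshold of 0.05. SE is the log2 fold change divided by the square root of F. CPM used TMM-scaled library sizes, and RPKM divided CPM by the deposited exon length. Depth was 34122162 to 49813523 counts, the biological coefficient of variation 22.5%. Chi-square per degree of freedom between replicates was 34.3 to 89.1, above counting noise. Each library counted as 1 replicate, though whether each was a separate animal is not stated. Counting intervals are exact binomial. Promoter windows are RefSeq's.

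The members and lists were chosen with earlier results of these data known. Named were members called at 2-fold or more, the 8 members with the highest mean RPKM, and in each of 6 pathway lists the 2 called genes with the smallest adjusted p in each direction; other genes are named to close a count or describe a subfamily. Some genes that this rule names are not reported here. Alternatives were RLE and upper quartile scaling, other filters, DESeq2 1.42.0, limma-voom (limma 3.58.1), no robust estimation, replicate number as a block, each replicate left out and stricter thresholds. Leaving out the third library of both groups was added after seeing the data.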

Additional observations from a re-analysis of the deposited data

How the results depend on the processing

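Of the 21 called members, 20 kept their call and direction in every alternative in which they were tested, and all 16 with a difference of at least 2-fold did; the exception was Abcf3. Over the alternatives at the same threshold, 5 to 8 members were called higher in embryonic and 12 to 15 in adult libraries. Same-numbered libraries did not deviate together (correlations -0.12, -0.08 and -0.13), and with the replicate number as a block 6 and 14 members, and 8848 genes in all, were called. Requiring at least 2-fold left 5744 genes (2601 higher in embryonic, 3143 in adult) and 3 members higher in embryonic libraries. It left 1 sterol gene, 2 peroxisome, 6 heme, 4 ribosome recycling and 2 flippase genes higher in embryonic libraries, and 3 peroxisome, 1 ribosome recycling, 4 flippase and 6 glutathione genes higher in adult libraries. At an adjusted p under 0.01 the adult counts were 3 for ribosome recycling, 4 for flippases and 5 for glutathione. Leaving out 1 replicate gave adult counts of 3 to 4 for ribosome recycling and 6 to 10 for glutathione, and leaving out the third library of both groups gave 3 for ribosome recycling. The log2 fold change of Abca7, not called, ranged from -0.24 to 0.00 when 1 replicate was left out. That of Abcc9, not called, turned from -0.09 (-0.43 without adult replicate 1) to 0.12 with limma-voom, 0.09 with the replicate block, 0.15 without embryonic replicate 3, 0.65 without adult replicate 3 and 0.85 without both; the cause was not tested. Depth limits the 10 tested members with fewer than 100 counts in a group: Abca6, Abca8a, Abca12, Abca13, Abcb1a, Abcb11, Abcc3, Abcc9, Abcd2 and Abcg4.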
